A study of Citrus maxima with 12 samples.

Results

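Fruit of 2 pomelo cultivars (Citrus maxima), Jinlan and Taoxi, was compared in the diseased state by RNA sequencing, with 3 libraries each. These 6 of the 12 labelled libraries of a study of black spot in Jinggang honey pomelo were taken by their cultivar and treatment labels. The other 6 libraries are diseased fruit of another cultivar, Jinsha, and control fruit of Taoxi. Their levels are given below, and they enter the main fit nowhere. Some further fits include them, where they bear on the spread and on which IDs are tested. The labels give the tissue as fruit and the treatment as disease or control, with no further detail of the infection, the tissue layer, the number of fruits or trees, or a sequencing batch. Control fruit of Jinlan was not analysed here, so a difference between diseased Jinlan and diseased Taoxi holds the cultivar and its response to disease together, and these cannot be told apart. Replicates are labelled as biosamples, and it is not said if each was a fruit or tree of its own. A p-value here therefore measures only how these libraries vary, part of which may be technical.

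Black spot of citrus fruit marks the rind after infection by a fungus. Plants answer fungi with a layered response, in which receptors at the cell surface and inside the cell set off hormone signals, transcription factors, enzymes that attack fungal walls, and the synthesis of lignin and other phenolic compounds. Cultivars of a species can differ in the resting level of such genes as well as in how far disease moves them. In a sample of whole tissue, fewer cells of a type and less RNA per cell cannot be told apart. The deposited table gives each gene by an ID and does not pair IDs with gene names, so the genes are described by their levels, by the form of their ID and by their place in the ID numbering, and no function is stated. Values are FPKM, which count sequenced fragments relative to the length of the gene and to the size of the library, and how many reads lie behind a value is not known.

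The libraries of each cultivar were alike and the cultivars were far apart. Over the 16868 IDs tested, levels on the log2(FPKM + 1) scale correlated at 0.992 to 0.994 among the 3 diseased Jinlan libraries and at 0.987 to 0.989 among the 3 diseased Taoxi libraries (Pearson's r across genes, which are not independent replicates). Between a Jinlan and a Taoxi library the correlation was 0.866 to 0.872. No library of the comparison stood apart from its group. Replicates spread less in Jinlan, with a median SD over genes of 0.085 against 0.122 in Taoxi on the log2 scale, and 11048 of the 16868 IDs had the wider spread in Taoxi. The fit gives both groups the same spread for a gene.

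The libraries of the cultivars also differed in the number of IDs at a clear level and in the part of the RNA held by the most abundant ones, in a design too small for a test of 1 value per library to pass. At 1 FPKM or more stood 16462, 16553 and 16440 IDs in the Jinlan libraries, against 15985, 15967 and 16087 in the Taoxi libraries. The ranges did not overlap (mean difference 472 IDs; exact permutation test, two-sided, p = 0.1, the smallest that 3 against 3 libraries can give). This count was made without further scaling. Median-ratio scaling divides the Jinlan values by 1.06 to 1.08 and the Taoxi values by 0.932 to 0.955, and the IDs were not counted again after it. Counted above 0 FPKM the order was the other way, with 21772 to 21958 IDs in Jinlan and 22120 to 22196 in Taoxi. The 100 most abundant IDs of a library held 14.5 ± 0.18% of its summed FPKM in Jinlan and 15.4 ± 0.079% in Taoxi (SD, n = 3 each), a difference of -0.945 percentage points (exact permutation test, two-sided, p = 0.1, again the smallest possible). The 10 most abundant IDs held 3.28 ± 0.015% in Jinlan and 3.98 ± 0.05% in Taoxi (SD, n = 3 each).

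Most expressed genes differed between the cultivars, by small amounts. Of the 16868 IDs, 7298 were higher and 4310 lower in diseased Jinlan (limma, Benjamini-Hochberg adjusted p below 0.05), which is 68.8% of those tested, 43.3% higher and 25.6% lower. Among the passing IDs the median absolute difference was 0.67 on the log2(FPKM + 1) scale, with quartiles of 0.42 and 1.10. Differences below 1.5-fold made up 43.2% of the passing IDs. The values of Jinlan and Taoxi did not overlap for 12357 IDs (73.3%), 7730 with Jinlan above (45.8%) and 4627 with Jinlan below (27.4%).

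Differences of at least 2-fold were found for 1975 higher and 1440 lower IDs, 20.2% of those tested (11.7% higher and 8.54% lower). Of these 3415 IDs, 3408 had groups that did not overlap, which choosing the IDs on the same values largely brings about. The counts here, and the lists, pairs, runs and shares by ID form below, keep IDs that reached 1 FPKM in the libraries of 1 group only. Such IDs entered the test through the group in which they are high. Among IDs with a mean of 1 to 10 FPKM, 1125 were at least 2-fold higher and 613 lower with them, and 763 and 341 without them. A stricter test asked whether the difference itself exceeded 2-fold (limma treat, adjusted p below 0.05), and 934 IDs passed as higher and 828 as lower, 10.4% of those tested (5.54% and 4.91%). Leaving out Jinlan 1, 2 or 3 took the higher count to 565, 561 or 601, since a filter that still asks for 3 libraries drops 228 of the 934 IDs, and to 781, 792 or 812 with the same IDs tested. Likewise, without Taoxi 1, 2 or 3 the filter drops 215 of the 828 lower IDs. The lower count was then 619, 608 or 556, and 839, 830 or 762 with the same IDs tested. In a fit over all 12 libraries 246 IDs passed, with 16 higher and 230 lower, and 252 with the same IDs tested. Without the library labelled Taoxi control 1, which is in neither group but enters the spread of that fit, 1845 IDs passed, 987 higher and 858 lower (1863 with the same IDs tested).

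**Figure D1:**
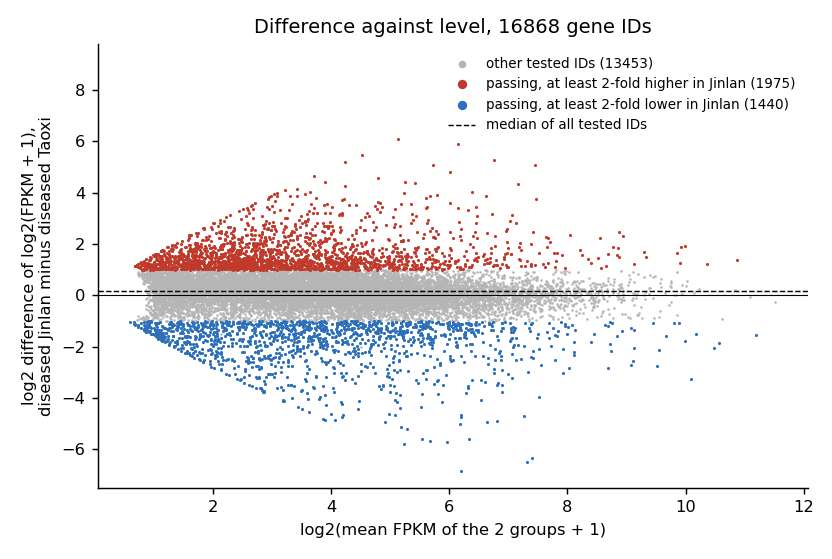
Each point is 1 of 16868 gene IDs, with its mean FPKM over both groups (log2 scale) on the horizontal axis and the log2 difference of diseased Jinlan minus diseased Taoxi on the vertical axis. The 1975 IDs at least 2-fold higher in Jinlan are red, the 1440 at least 2-fold lower are blue, and the dashed line marks the median of all tested IDs at 0.15. The largest difference lies below 0, at -6.84, and the largest above 0 at 6.11.

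The balance of higher and lower IDs varied with the scaling between libraries. Over all tested IDs the median difference was 0.15 on the log2 scale, above 0 in favour of Jinlan. Median-ratio scaling brings this median to -0.01 by its construction, upper-quartile scaling to 0.07 and quantile normalization to 0.05, while rescaling to TPM left it at 0.17. With median-ratio scaling 5586 of 16856 IDs were higher and 5771 lower (67.4% in all, 33.1% and 34.2%), so the share of passing IDs that were higher in Jinlan was 49.2%, against 62.9% without scaling. At 2-fold or more the median-ratio counts were 1559 higher and 1751 lower (19.6%, as 9.25% and 10.4%), and by the stricter test 729 and 1005 (10.3%, as 4.32% and 5.96%). The number of IDs that differ is thus similar under both scalings, and the majority direction is not.

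On the log2(FPKM + 1) scale the largest differences were more often falls than rises in Jinlan. At 4-fold or more 385 IDs were higher and 413 lower, at 8-fold 104 and 150, at 16-fold 19 and 45, and at 32-fold 7 and 11. With median-ratio scaling the pairs were 319 and 486, 90 and 165, 17 and 50, and 5 and 14. From 4-fold on, falls outnumbered rises under upper-quartile, quantile and TPM scaling too, at 4-fold by 455 to 348, 478 to 322 and 525 to 524. Folds are taken from log2(FPKM + 1), so they come out too small for IDs near 0 FPKM. With 0.1 added in place of 1, the test against a 2-fold difference passed 1388 higher and 1030 lower IDs, against 934 and 828. Counts at 4-fold and above were not made with 0.1 added, so whether falls outnumber rises there was not tested. All counts by fold keep the IDs that reached 1 FPKM in the libraries of 1 group only, which entered the test through that group. Whether falls outnumber rises at 4-fold and above without these IDs was not tested either.

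**Figure D2:**
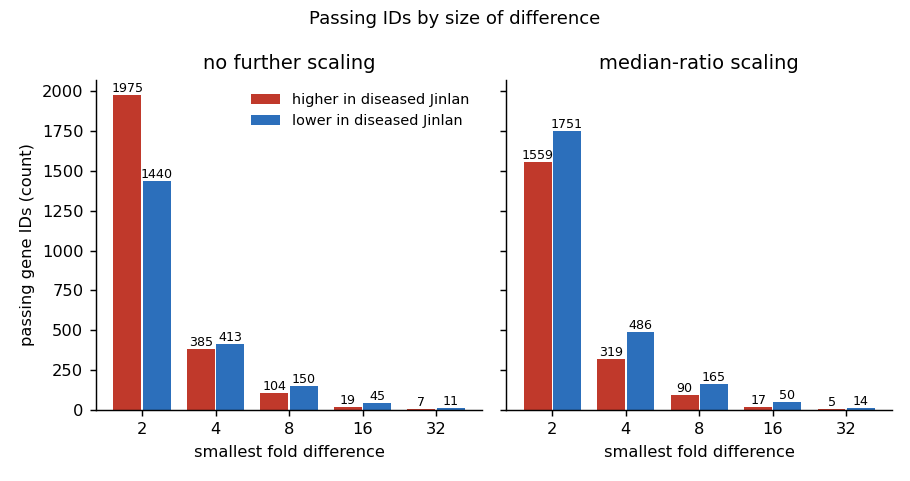
Bars give the number of passing gene IDs whose difference reaches the fold on the horizontal axis, in red for IDs higher and in blue for IDs lower in diseased Jinlan than in diseased Taoxi, without further scaling (left) and with median-ratio scaling (right). At 16-fold 19 IDs were higher and 45 lower on the left, and 17 and 50 on the right.

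Direction also varied with abundance. Classes were made on the mean FPKM over the 6 libraries. IDs that reached 1 FPKM in the libraries of 1 group only, 890 of 7108 from 1 to 10 FPKM, 25 of 8319 from 10 to 100 FPKM and 256 of 299 below 1 FPKM, entered the test through the group in which they are high and are left out of the shares that follow. Of the other 6218 IDs from 1 to 10 FPKM, 12.3% were at least 2-fold higher and 5.48% at least 2-fold lower in Jinlan, and their median difference was 0.25 on the log2 scale. Of 8294 IDs from 10 to 100 FPKM the shares were 8.34% and 7.76%, with a median difference of 0.08. Among the 1142 IDs at 100 FPKM or more falls outnumbered rises, with 7.62% higher and 10.6% lower and a median of -0.01. With median-ratio scaling the medians of the 3 classes were 0.12, -0.09 and -0.19, and the middle class then held more falls (816) than rises (530).

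Levels can be followed library by library in 4 IDs that stood at 10 FPKM or more in all 6 libraries, so that no fold rests on a value near 0. Of 7775 IDs at this level, 4047 passed with and without median-ratio scaling and had groups that did not overlap (1821 higher and 2226 lower). Of all tested IDs, 68.8% passed without scaling and 73.3% had groups that did not overlap, each condition taken alone. The share of all tested IDs that met these conditions together was not counted, so the 4047 of 7775 cannot be set against these shares. The balance of higher and lower IDs varies with the scaling. The 4 IDs are the largest rises and the largest falls in Jinlan among the 4047. Cg1g010620 had 330, 341 and 311 FPKM in the diseased Jinlan libraries, against 27.7, 17.6 and 25.9 FPKM in the diseased Taoxi libraries. Every Jinlan value was above every Taoxi value, with means of 328 ± 15.0 and 23.7 ± 5.4 FPKM (SD, n = 3 each), and the log2 difference was 3.76 ± 0.15 (SE, limma adjusted p = 7.39e-07). In the other libraries this ID stood at 261 ± 15.9 FPKM in diseased Jinsha (SD, n = 3), and the Taoxi controls 1, 2 and 3 held 296, 5.49 and 2.34 FPKM. The diseased Taoxi libraries thus lay above Taoxi controls 2 and 3 and below all the others.

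Cg2g040850 had 167, 179 and 130 FPKM in diseased Jinlan, against 12.6, 10.1 and 19.9 FPKM in diseased Taoxi. Its means were 159 ± 25.8 and 14.2 ± 5.1 FPKM (SD, n = 3 each), a log2 difference of 3.43 ± 0.23 (SE, limma adjusted p = 6.97e-06). Diseased Jinsha held it at 257, 215 and 171 FPKM, Taoxi control 1 at 146 FPKM and Taoxi controls 2 and 3 at 10.4 and 13.1 FPKM. For this ID Taoxi controls 2 and 3 lay within the range of diseased Taoxi, and every Jinlan and Jinsha value was above it.

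The larger fall of the 4 IDs was that of Cg6g006520, with 20.0, 22.8 and 19.0 FPKM in diseased Jinlan, against 253, 321 and 460 FPKM in diseased Taoxi. Its means were 20.6 ± 2.0 and 345 ± 105 FPKM (SD, n = 3 each), and its log2 difference was -3.96 ± 0.19 (SE, limma adjusted p = 1.69e-06). It spread widely in Taoxi, yet the lowest Taoxi value was far above the highest Jinlan value. Diseased Jinsha held it at 49.5, 32.2 and 23.5 FPKM, and the Taoxi controls at 135, 550 and 721 FPKM.

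Cg3g004920 had 15.4, 15.4 and 15.1 FPKM in diseased Jinlan, against 209, 224 and 230 FPKM in diseased Taoxi. Both groups were tight, at 15.3 ± 0.15 and 221 ± 10.9 FPKM (SD, n = 3 each), and the log2 difference was -3.77 ± 0.06 (SE, limma adjusted p = 1.87e-08). Diseased Jinsha lay between them, at 68.1, 67.0 and 58.2 FPKM. The Taoxi controls were at 36.1, 162 and 128 FPKM, the lowest of them again Taoxi control 1.

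**Figure D3:**
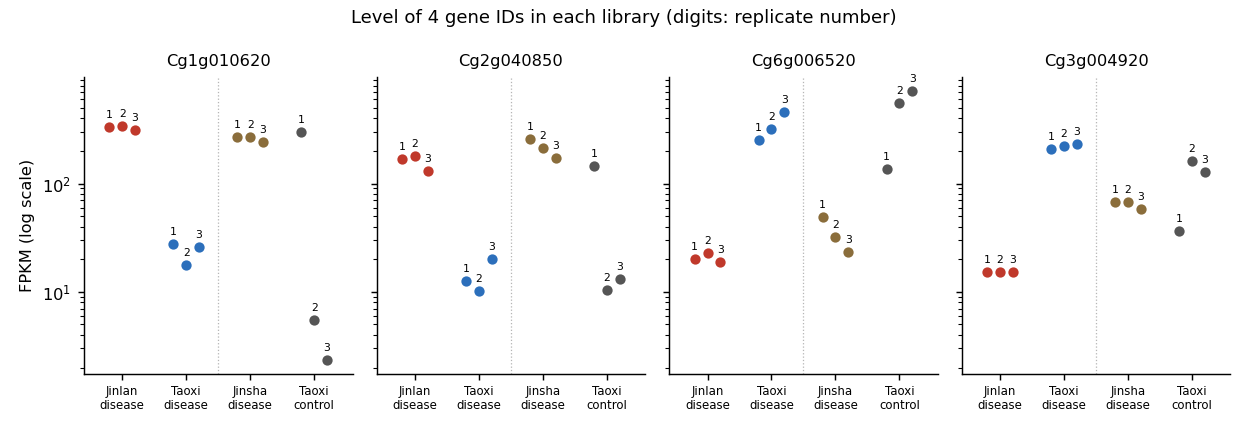
Points give the FPKM (log scale) of Cg1g010620, Cg2g040850, Cg6g006520 and Cg3g004920 in each library, with the replicate number beside the point. The groups compared stand left of the dotted line, diseased Jinlan and then diseased Taoxi, and do not overlap for any of the 4 IDs. Taoxi control 1 stands apart from Taoxi controls 2 and 3 for all 4 IDs, on the side of diseased Jinlan.

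Some IDs were on in 1 cultivar and listed at 0 in the other. At 1 FPKM or more in all 3 diseased Jinlan libraries and at 0 in all 3 diseased Taoxi libraries were 37 IDs, with a median of 2.69 FPKM in Jinlan (quartiles 1.67 and 6.73, highest 35.9). The reverse set, at 0 in all Jinlan libraries and on in all Taoxi libraries, had 56 IDs, with a median of 4.03 FPKM in Taoxi (quartiles 2.34 and 11.4, highest 27.8). At 10 FPKM or more where on were 7 of the 37 and 17 of the 56. An FPKM of 0 can be a failed estimate as well as a silent or missing gene, so no fold is given.

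Both sets were also read in the libraries that had not been used to pick them. Of the 37 IDs on in diseased Jinlan, 29 were on in all 3 diseased Jinsha libraries and 0 were listed at 0 in all 3. In Taoxi controls 2 and 3 together 33 of them were at 0 and 0 were on, while in Taoxi control 1 33 were on and 1 was at 0. Of the 56 IDs on in diseased Taoxi, 45 were at 0 in all 3 Jinsha libraries and 1 was on in all 3. In Taoxi controls 2 and 3 together 46 were on and 0 at 0, and in Taoxi control 1 16 were on and 3 at 0. Taoxi controls 2 and 3 thus had the state of diseased Taoxi for 33 of the 37 and 46 of the 56 IDs.

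The 2-fold IDs as a whole showed the same arrangement. The 1975 IDs higher in Jinlan had a median level of 3.55, 3.55 and 3.56 in the Jinlan libraries, against 1.88, 1.87 and 1.97 in the diseased Taoxi libraries, on the log2(FPKM + 1) scale. Those values chose the IDs and are a description. In libraries that did not choose them, the median was 3.45 to 3.50 in diseased Jinsha, 1.70 and 1.67 in Taoxi controls 2 and 3, and 3.32 in Taoxi control 1. The 1440 IDs lower in Jinlan had medians of 2.37, 2.44 and 2.43 in Jinlan, against 4.22, 4.29 and 4.36 in diseased Taoxi. They stood at 2.82 to 2.83 in Jinsha, at 4.31 and 4.27 in Taoxi controls 2 and 3, and at 3.07 in Taoxi control 1.

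Counted ID by ID, 85.6% to 87.9% of the 1975 higher IDs lay nearer to the Jinlan mean than to the diseased Taoxi mean in a Jinsha library, and 3.8% and 4.46% in Taoxi controls 2 and 3. For Taoxi control 1 the share was 96.2%. Of the 1440 lower IDs, 80.6% to 81.6% lay nearer to Jinlan in a Jinsha library, 9.93% and 12.2% in Taoxi controls 2 and 3, and 81.7% in Taoxi control 1. For most IDs of both lists the library labelled Taoxi control 1 therefore lay nearer to diseased Jinlan than to diseased Taoxi. On the lower list its median of 3.07 was still above those of Jinlan (2.37 to 2.44) and Jinsha (2.82 to 2.83). Taoxi control 1 is in neither group of the comparison. The shares nearer to Jinlan were not counted for IDs outside these lists.

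**Figure D4:**
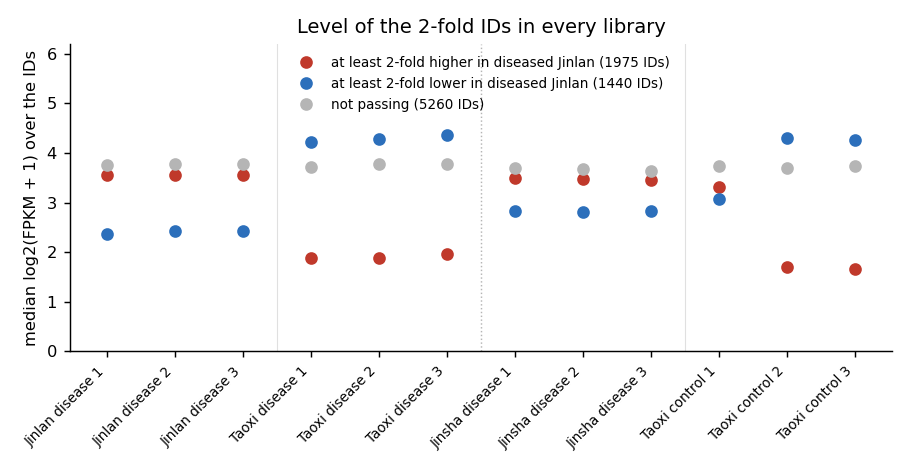
Points give the median level, as log2(FPKM + 1), of the 1975 IDs at least 2-fold higher in diseased Jinlan (red), the 1440 at least 2-fold lower (blue) and the 5260 that did not pass (grey), in each of 12 libraries. The libraries left of the dotted line chose the IDs. Taoxi controls 2 and 3 stand at 1.70 and 1.67 for the red set and Taoxi control 1 at 3.32.

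The part of the RNA held by these IDs is a description of the same kind, since a list chosen to be higher in a cultivar must hold more of its RNA. The 1975 higher IDs held 13.1% to 13.3% of the summed FPKM of a diseased Jinlan library, against 3.96% to 4.12% of a diseased Taoxi library. In libraries that did not choose them they held 12.8% to 13.1% in diseased Jinsha, 3.49% and 3.40% in Taoxi controls 2 and 3, and 11.4% in Taoxi control 1. The 1440 lower IDs held 4.69% to 4.78% in Jinlan, against 16.0% to 17.1% in diseased Taoxi. They held 5.87% to 5.98% in Jinsha, 17.7% and 17.3% in Taoxi controls 2 and 3, and 6.87% in Taoxi control 1.

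Where neighbours in the numbering of the IDs both differed, they mostly did so in the same direction. IDs of the form Cg1g to Cg9g followed by a number were put in number order within each prefix. Whether this order is that of the genes along a chromosome was not checked, since no annotation was used. An ID that passed at 2-fold or more was followed by another such ID in 25.8% of the pairs tested, against 18.9% at 50 places and 20.2% of all IDs tested. In 497 pairs of IDs next to each other both passed at 2-fold or more, and 364 of these pairs (73.2%) had the same direction. The share was 63.6% for IDs 2 places apart, 57.4% at 3 places, 54.5% at 5 and 10 places, and 54.9% at 50 places. With median-ratio scaling it was 75.1% for adjacent IDs and 52.9% at 50 places. Over all 10288 adjacent pairs tested, whatever their size, the log2 differences correlated at 0.162 (Pearson's r), against 0.007 at 50 places. These points share libraries and, where neighbours are near-identical copies, may share reads, so levels of single members are uncertain there.

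**Figure D5:**
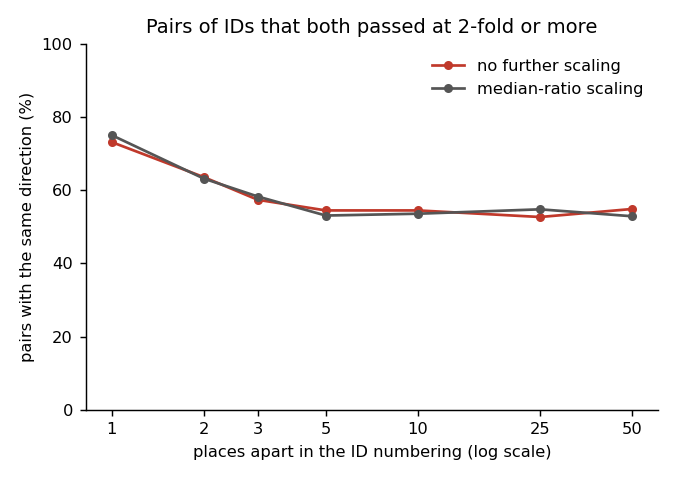
The vertical axis gives the share of pairs with the same direction, among pairs of IDs that both passed at 2-fold or more, and the horizontal axis (log scale) how many places apart the IDs are in the numbering of 1 prefix. The share was 73.2% for adjacent IDs and 54.9% at 50 places without scaling (red), and 75.1% and 52.9% with median-ratio scaling (grey).

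Most 2-fold IDs formed no run with a neighbour of the same direction, and long runs were few. An ID that was not tested ends a run, as does one that differed in the other direction. Only 46% (Cg9g) to 61.3% (Cg7g) of the IDs of a numbered prefix were tested, so the filter cuts runs short. How many runs another order of the IDs would give was not tested. Among IDs higher in Jinlan there were 1371 single IDs, 146 runs of 2, 22 of 3, 5 of 4, 1 of 5 and 2 of 6 consecutive IDs that all passed at 2-fold or more. Among IDs lower in Jinlan there were 1023 single IDs, 116 runs of 2, 10 of 3 and 3 of 4. Both runs of 6 were in the Cg2g numbering. In one the group means were 2.40 to 50.6 FPKM in Jinlan, against 0.0546 to 3.17 FPKM in Taoxi, with a median log2 difference of 2.16. In the other they were 6.81 to 20.7 FPKM in Jinlan, against 2.30 to 7.51 FPKM in Taoxi, with a median of 1.34. Among the 11 runs of 4 or more IDs, the one with the largest median difference was 4 IDs of the Cg6g numbering, at 13.2 to 45.1 FPKM in Jinlan and 0 to 7.15 FPKM in Taoxi, with a median of 3.80. The run of 4 or more that held the ID with the highest group mean was 4 IDs of the Cg5g numbering that were lower in Jinlan, at 0.943 to 158 FPKM against 4.38 to 946 FPKM in Taoxi, with a median of -2.03.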

How the data were processed

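The authors deposited 1 table of FPKM for 32863 gene IDs. No source used here names the aligner, counter, build or annotation. Per the labels' protocols, a Qiagen column kit gave the RNA and a SMARTer kit the mRNA libraries. FPKM depends on how well reads of each cultivar match the reference, which the table does not show. Columns were matched to the 12 samples by title; 6 columns matching no sample were not used. Low values showed no whole-read steps (in 6 pairs of replicates, at most 1.81% of the IDs below 0.3 FPKM shared a bin of 0.02 in log2 ratio), so no counting interval is given.

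IDs that reached 1 FPKM in 3 or more of the 6 libraries were tested on log2(FPKM + 1) with limma 3.58.1 in R 4.3.3 (mean-variance trend, two-sided, Benjamini-Hochberg over all IDs tested, threshold 0.05). The same fit with median-ratio scaling is given beside it. The fit was run on simulated data in which both groups had the same spread for a gene. How it behaves where the spread differs between groups was not tested. The table pairs no names with IDs, so the 2 largest rises and 2 largest falls at 10 FPKM or more in all 6 libraries are named, and lists by gene description could not be filled. The comparison and lists were chosen with earlier results of these data known. Figures were drawn with matplotlib 3.10.9.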

Additional observations from a re-analysis of the deposited data

How the results depend on the processing

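Over the pseudocounts (0.1 and 0.5), filters (none and 5 FPKM), scalings, variance priors, library sets, replicate block and libraries left out, 8924 to 13110 IDs passed, and 2514 to 4390 at 2-fold or more. The 4 named IDs were picked as the largest differences that passed with and without median-ratio scaling, so their passing again was largely set by that choice. They passed with the same direction each time (limma, highest adjusted p = 0.0264, for Cg1g010620 in the fit over all 12 libraries). The count past a test against 2-fold fell to 246 (16 higher and 230 lower) in that fit, and to 252 (17 and 235) with the IDs tested in the 6 libraries, against 1762 (934 and 828). Without Taoxi control 1 these counts were 1845 and 1863, in fits chosen after seeing the data. Leaving out each library in turn gave 9633 to 11041 passing IDs (5821 to 7109 higher, 3663 to 3953 lower), 2989 to 3104 at 2-fold or more (1531 to 2015 and 1089 to 1458), and 1264 to 1515 past the test against 2-fold (561 to 901 and 556 to 722). Without Jinlan 1, 2 or 3 the last count of higher IDs was 565, 561 or 601. The filter still asks for 3 libraries there, and 228 of the 934 higher IDs were then no longer tested. Without Taoxi 1, 2 or 3, 215 of the 828 lower IDs were no longer tested, and the count of lower IDs was 619, 608 or 556. With the same IDs tested, a choice made after seeing the data, the count of higher IDs was 781, 792 or 812 without Jinlan 1, 2 or 3, and 896 to 912 without a Taoxi library. The share of passing IDs higher in Jinlan was 55.8% with upper-quartile scaling, 53.7% with quantile normalization and 63.6% with TPM. IDs on in Jinlan and at 0 in Taoxi numbered 13 when on meant 5 FPKM and 71 when off meant 0.1 FPKM or less, and the reverse set 23 and 85. The labels number the replicates of both groups alike. Same-numbered libraries deviated together at 0.02, -0.22 and -0.08 (Pearson's r), and differently numbered ones at -0.17 to 0.24. With 3 libraries a group, whose deviations add up to 0, these values cannot decide whether the numbers pair the libraries. With the replicate block 11061 IDs passed (10775 with median-ratio scaling). FPKM keep no depth, so counting error is unknown.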

Other observations

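The form of the ID gave a further description of where the 2-fold differences lay. IDs that begin with NewGene made up 2740 of the 32863 in the table, and 1050 of them were tested. Of these, 14.8% were at least 2-fold higher and 11.3% at least 2-fold lower in diseased Jinlan than in diseased Taoxi, 26.1% in all, against 19.9% of the 15818 other IDs tested. With median-ratio scaling the shares were 24.9% and 19.2%. NewGene IDs were also less abundant, with a median over IDs of 4.47 FPKM, against 13.3 FPKM for the other IDs, and the part of abundance in this difference was not tested. They made up 11 of the 37 IDs on in Jinlan and at 0 in Taoxi, and 16 of the 56 IDs of the reverse set.

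Among the numbered prefixes the share of tested IDs that passed at 2-fold or more was 16.9% for Cg5g and 17.3% for Cg4g, and 22.6% for Cg1g. Over all tested IDs it was 20.2%, with 11.7% higher and 8.54% lower. Rises in Jinlan outnumbered falls over all tested IDs and in every prefix but Cg7g. That prefix had 146 rises and 148 falls among 1475 IDs tested (9.9% and 10%). Cg8g had 165 rises and 100 falls among 1241 IDs tested (13.3% and 8.06%). These counts are without further scaling, and the balance of rises and falls varies with the scaling.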
